A study of Mus musculus with 24 samples.

Results

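The data described here compared the cerebellum (CB) with the hippocampus (HC) of 16GsoT/T mice at postnatal day 35 (P35), and asked how much of the expression that separates these regions was present in the mutant. The libraries were chosen by their labels for genotype, age and tissue, which gave 6 of the 24 libraries in the series, 3 of CB (C19, C20 and C21) and 3 of HC (B10, B11 and B12). All 25793 gene symbols of the count table were members, and 13837 of them passed the filter on low counts in these 6 libraries. The same contrast in 6 wild-type (WT) libraries of the same age served as the reference for regional expression. These were M27, M28 and M29 of CB and N10, W481 and W483 of HC.

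16GsoT/T mice are homozygous for a reciprocal translocation between chromosomes 5 and 8 that breaks between Galnt17 and Auts2 and near Sox1, and every mutant library carried the rearrangement in all cells. The mutants were bred from homozygous parents, so the WT mice were age-matched animals and not their littermates. The study describes B6C3 hybrid mice and the sample titles name B6C3 for the controls, whereas the strain field of the labels gives C57BL/6. Mice were male according to the study, and no treatment was given. Each library carried a mouse name of its own that no library of the other region shared. CB libraries were sequenced in lane 6 and HC libraries in lane 5, so that region and lane cannot be told apart in either genotype. W481 and W483 carry a paired index and later library numbers than N10, whose index and number follow those of the mutant HC libraries. The design also holds 1 translocation line only, and each tissue was a bulk dissection.

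The cerebellum develops from the hindbrain and holds granule neurons, Purkinje cells, inhibitory interneurons of the molecular and granular layers, and the radial Bergmann glia. The hippocampus develops from the dorsal forebrain and holds pyramidal neurons of fields CA1, CA2 and CA3, dentate granule neurons and inhibitory interneurons that migrate in from the ventral forebrain. The transcription factors that divide the early neural tube remain active in many of these neurons for life, and the regions also use different receptor subunits for the same transmitters, so that both kinds of gene mark regional identity.

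Reads on genes ranged from 2563968 to 4127478 in mutant HC, from 5949289 to 7149151 in mutant CB, from 3670821 to 3970847 in WT HC and from 5140843 to 7974640 in WT CB. The share of counted reads that fell on genes was 42.3% to 42.4% in mutant CB and 37.6% to 37.7% in WT CB. The 10 most abundant genes held 4.77% to 4.94% of reads on genes in mutant CB and 6.02% to 6.83% in WT CB. Mutant and WT CB thus did not overlap in either measure, whereas mutant and WT HC overlapped in both. Several libraries also stood apart in genes restricted to the other region. The 54 genes with the largest CB excess in WT (a log2 difference over 6, about the most restricted genes of CB) summed to 234 CPM (counts scaled to a common library size) in mutant HC library B10, which was 2.56% of their mean sum in mutant CB. B11 and B12 held 0.370% and 0.372%, and the WT HC libraries held 0.214% to 0.467%. For the 87 genes with the largest HC excess in WT, the sums in mutant CB were 1.20% of the mutant HC mean in C19, 1.43% in C20 and 2.29% in C21, against 0.463% to 0.616% in WT CB. Both gene sets were chosen on WT values, which favors low levels in the WT libraries of the other region. B10, C20 and C21 held the highest levels of genes of the other region among the mutant libraries. Each leading count is given below with and without these 3 libraries. Without them the only mutant CB library was C19, whose spread was then assumed to be that of the other groups.

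**Figure D1:**
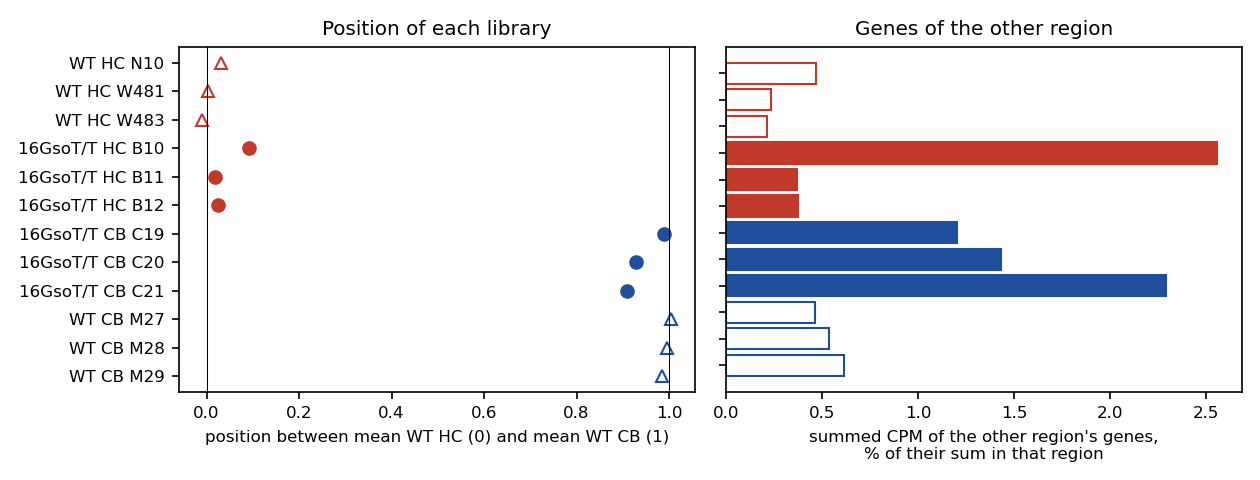
Left, the position of each of the 12 libraries (rows) on the line from the mean WT HC library (0) to the mean WT CB library (1), over the 1180 genes that differed between regions in WT; filled points are 16GsoT/T and open triangles WT. Right, the summed CPM of the most restricted genes of the other region, as a percentage of their mean sum in their own region and genotype. B10 reached 2.56% and C21 2.29%, and no WT library passed 0.616%. The genes were chosen on WT values, which favors low percentages in the WT libraries. They are among the 1180 genes of the left panel, so the panels are not independent.

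Cerebellum and hippocampus of 16GsoT/T mice differed in 7237 of 13837 genes tested (52.3%; edgeR quasi-likelihood test, Benjamini-Hochberg adjusted p at most 0.05). Of these, 3569 genes (25.8% of those tested) were higher in CB and 3668 (26.5%) were higher in HC, and the median log2 difference of all genes tested (CB minus HC) was -0.01. A log2 difference of at least 2, which is a fold change of at least 4, was reached by 1200 called genes (8.67%), of which 460 were higher in CB and 740 in HC. At a log2 difference of at least 1 there were 1330 genes higher in CB and 1785 higher in HC, beside 1409 and 1644 in WT. At 5 there were 58 genes higher in CB and 108 higher in HC, beside 76 and 142 in WT. At 6 there were 33 and 59, beside 54 and 87 in WT. The difference between genotypes in these counts was not tested. In 8316 genes (60.1% of those tested) the 3 CB libraries and the 3 HC libraries did not overlap, beside the 52.3% called. WT mice gave 7772 calls among 13886 genes tested (56.0%), 3819 higher in CB (27.5%) and 3953 higher in HC (28.5%), with 1180 of them (8.50%) past a log2 difference of 2. Without B10, C20 and C21 the mutant contrast called 5421 genes, 2692 higher in CB and 2729 higher in HC. In bulk tissue, fewer cells of a type and less RNA per cell cannot be told apart, and this holds for every difference given here.

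Among called genes with a mean of at least 5 on the log2 CPM scale and no overlap between the groups, the 12 with the largest log2 difference included Fat2, Cbln3, Car8, Gabra6, Cbln1, Atp2a3, Grm4, Zic1, Kcng4, Syt2 and Inadl. They are named by their size in this contrast, so their differences are a description. Fat2, an atypical cadherin of granule neuron axons, was at 1194, 999 and 1105 CPM in mutant CB libraries C19, C20 and C21 and at 15.2, 0 and 0.558 CPM in mutant HC libraries B10, B11 and B12. Its log2 difference was 7.41 ± 0.59 SE, edgeR adjusted p = 5.78e-08, and without B10, the only HC library with more than a trace, it was 11.58. Gabra6, the GABA-A receptor subunit that granule neurons use, was at 713, 709 and 716 CPM in CB and at 27.6, 0 and 0 CPM in HC. B11 and B12 had no read of Gabra6, and the 27.6 CPM in B10 set its log2 difference at 6.00 ± 0.66 SE, edgeR adjusted p = 3.14e-06. Against B11 and B12, with 3 counts per library as the floor, Gabra6 was at least 711-fold higher in CB. Cbln3, a granule neuron cerebellin, was at 2205, 2117 and 2087 CPM in CB and at 42.3, 0.778 and 0.837 CPM in HC, with B10 again the highest HC library. Its log2 difference was 6.95 ± 0.64 SE, edgeR adjusted p = 1.48e-06, and 11.28 without B10, beside 9.97 in WT.

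Syt2, a fast calcium sensor of synaptic vesicles, was at 303, 359 and 343 CPM in mutant CB and 10.7, 11.7 and 10.6 CPM in mutant HC (log2 4.88 ± 0.14 SE, edgeR adjusted p = 2.77e-11). Kcng4, a modifying subunit of voltage-gated potassium channels, was at 202, 193 and 206 CPM in CB and 8.32, 5.45 and 4.74 CPM in HC (log2 4.92 ± 0.19 SE, edgeR adjusted p = 1.34e-10). The HC libraries of Syt2 lay close together, those of Kcng4 were highest in B10, and in both genes all of them lay far under the CB libraries. The HC values of Car8, a Purkinje cell protein that binds the inositol trisphosphate receptor, were spread more widely, at 49.7, 11.3 and 7.25 CPM against 2009, 2331 and 1665 CPM in CB. Zic1, a transcription factor of the granule lineage, was at 30.7, 10.9 and 11.4 CPM in HC against 754, 806 and 765 CPM in CB. Grm4, the presynaptic glutamate receptor of parallel fibers, was at 14.7, 6.22 and 8.09 CPM in HC against 478, 490.1 and 477 CPM in CB. In Car8, Zic1 and Grm4 the highest HC library was B10.

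**Figure D2:**
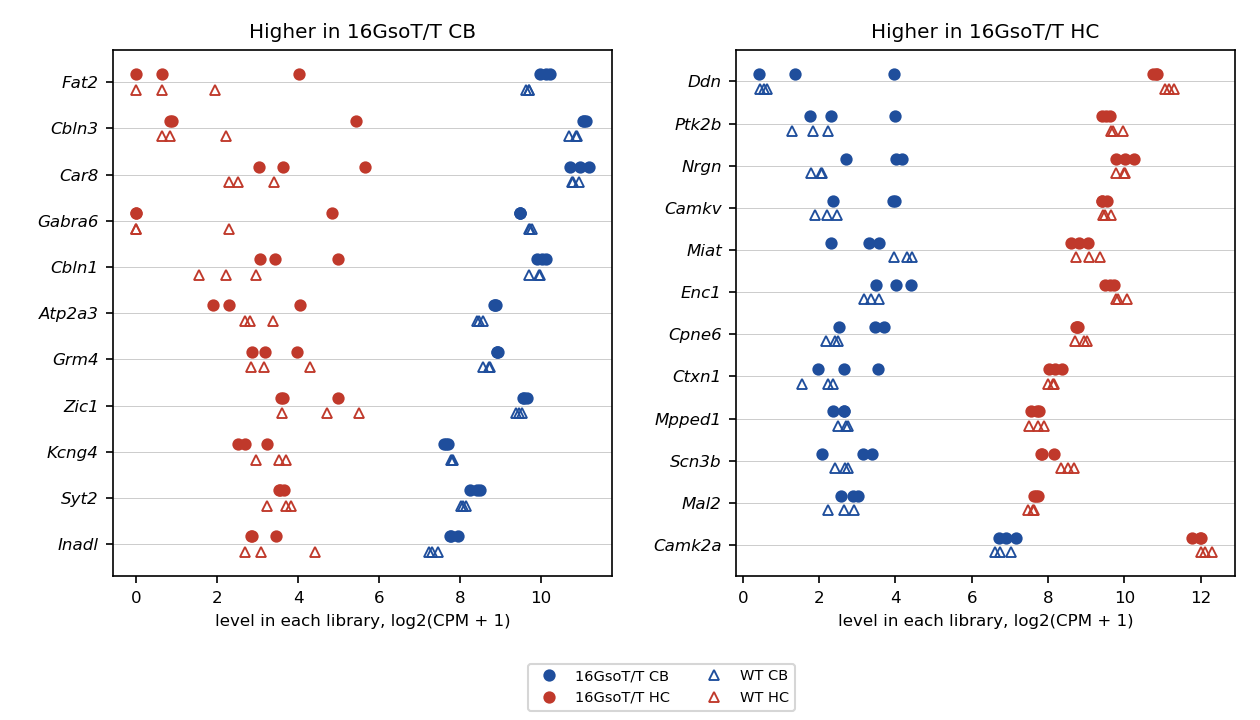
Level of genes among the 12 with the largest CB excess (left) and the 12 with the largest HC excess (right) in each of the 12 libraries, as log2(CPM + 1); filled circles are 16GsoT/T, open triangles WT, blue CB and red HC. In every gene the CB and HC libraries of both genotypes stand apart, and in Fat2, Cbln3 and Gabra6 a single mutant HC library, B10, lies to the right of the others.

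On the hippocampal side, the 12 genes named by the same rule were Ddn, Ptk2b, Nrgn, Camkv, Miat, Enc1, Cpne6, Ctxn1, Mpped1, Scn3b, Mal2 and Camk2a. Ddn, which encodes the postsynaptic protein dendrin, was at 1848, 1826 and 1735 CPM in B10, B11 and B12 and at 0.341, 1.56 and 14.5 CPM in C19, C20 and C21. The CB values ran from close to zero to 14.5 CPM, and the log2 difference was -8.39 ± 0.55 SE, edgeR adjusted p = 3.58e-08. Nrgn, or neurogranin, which binds calmodulin at excitatory synapses, was at 1222, 874 and 1043 CPM in HC and 5.46, 17.2 and 15.2 CPM in CB (log2 -6.41 ± 0.26 SE, edgeR adjusted p = 1.11e-09). C20 and C21 exceeded C19 for Nrgn, and WT CB was lower at 3.17, 2.46 and 3.18 CPM. Camk2a, the alpha subunit of calcium/calmodulin kinase II, was at 3524, 4094 and 4043 CPM in HC and 103, 118 and 141 CPM in CB (log2 -5.06 ± 0.11 SE, edgeR adjusted p = 2.77e-11).

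Mpped1 and Mal2 differed as much in the mutant as in WT within narrow limits. Mpped1, a metallophosphoesterase gene of forebrain neurons, was at 218, 186 and 210.1 CPM in mutant HC and 4.10, 5.25 and 5.22 CPM in mutant CB (log2 -5.44 ± 0.16 SE, edgeR adjusted p = 2.77e-11). Its difference between genotypes was -0.09 (95% interval -0.59 to 0.40). Mal2, a membrane transport protein, was at 199, 213 and 205 CPM in HC and 7.17, 6.38 and 4.93 CPM in CB, with a difference between genotypes of 0.07 (95% interval -0.41 to 0.54). Both intervals stayed within a 2-fold change. Miat, a long noncoding RNA of neurons, was at 387, 532 and 451 CPM in HC and 3.93, 10.8 and 8.81 CPM in CB in the mutant, against 14.6, 20.6 and 18.7 CPM in WT CB. Its difference between genotypes did not pass the test (log2 -0.95, 95% interval -1.64 to -0.27, edgeR adjusted p = 0.0694), and without B10, C20 and C21 it was -2.05 and was called (edgeR adjusted p = 0.0156).

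Promoters of a pair of genes from each side are shown because Gabra6 and Gabra5 encode alternative alpha subunits of the same receptor with opposite regional restriction, and because Cbln3 and Nrgn were among the most restricted genes of CB and HC. Each sequence is RefSeq's reference (GRCm38.p6) from 250 bases before to 50 bases after the gene's start, read 5′ to 3′ on the minus strand, on which all 4 genes lie. Capitals mark matches, on either strand, to an E-box spelled CAGATG, to the motif TTGGC of the NFI factors, to the promoter element spelled TATAAA and to the GC box, which is spelled GGGCGG. The coordinates are chr11:42321023-42321322 for Gabra6, chr14:55884207-55884506 for Cbln3, chr7:57510010-57510309 for Gabra5 and chr9:37552696-37552995 for Nrgn.
Gabra6: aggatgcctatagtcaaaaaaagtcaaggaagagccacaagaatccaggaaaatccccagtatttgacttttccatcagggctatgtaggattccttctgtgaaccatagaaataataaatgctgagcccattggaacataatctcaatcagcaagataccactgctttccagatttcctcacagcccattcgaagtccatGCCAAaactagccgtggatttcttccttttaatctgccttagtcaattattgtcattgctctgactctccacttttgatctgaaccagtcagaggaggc
Cbln3: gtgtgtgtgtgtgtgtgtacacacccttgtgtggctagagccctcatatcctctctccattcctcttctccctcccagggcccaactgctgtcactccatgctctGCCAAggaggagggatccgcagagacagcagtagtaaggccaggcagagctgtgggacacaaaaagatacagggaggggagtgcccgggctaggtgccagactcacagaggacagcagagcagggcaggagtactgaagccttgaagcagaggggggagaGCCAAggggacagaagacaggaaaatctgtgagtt
Gabra5: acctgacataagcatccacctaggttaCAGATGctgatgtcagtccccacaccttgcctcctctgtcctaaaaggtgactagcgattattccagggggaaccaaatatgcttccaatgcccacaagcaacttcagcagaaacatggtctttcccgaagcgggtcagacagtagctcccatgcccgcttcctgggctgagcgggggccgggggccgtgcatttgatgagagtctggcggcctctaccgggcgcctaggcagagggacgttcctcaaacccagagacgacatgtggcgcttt
Nrgn: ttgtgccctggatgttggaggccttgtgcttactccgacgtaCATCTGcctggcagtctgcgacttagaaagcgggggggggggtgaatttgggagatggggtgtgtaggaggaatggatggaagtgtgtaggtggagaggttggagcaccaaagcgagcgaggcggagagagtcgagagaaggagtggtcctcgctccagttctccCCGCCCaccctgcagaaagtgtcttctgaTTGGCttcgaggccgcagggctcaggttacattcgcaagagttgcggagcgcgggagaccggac
The promoters of both HC genes held more CG dinucleotides, 13 in Gabra5 and 17 in Nrgn, than those of both CB genes, 2 in Gabra6 and 2 in Cbln3. TTGGC or its complement occurred 1 time in Gabra6, 2 times in Cbln3 and 1 time in Nrgn, and is found in 46.7% of the 32851 promoters of that table. CAGATG or its complement occurred in Gabra5 and Nrgn and in 17.2% of all promoters, and GGGCGG or its complement in Nrgn and in 35.7%. TATAAA was found in none of the 4 and in 13.6% of all promoters, and no matches overlapped. A promoter was found for 66.8% of the genes tested, and promoters of regional genes were not compared with those of the rest. In the older build NCBIM37, the genes lie at chr11:42119939-42134574 (Gabra6), chr14:56497757-56503093 (Cbln3), chr7:64663060-64765379 (Gabra5) and chr9:37352078-37360330 (Nrgn), all on the minus strand.

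Most genes that separated CB from HC in WT mice separated them in the same direction in 16GsoT/T. Of the 1180 genes called in WT with a log2 difference of at least 2, 1086 (92.0%) were called in the same direction in the mutant, beside 52.3% of all genes called in either direction there. A further 25 were not called, 64 did not pass the count filter in the mutant libraries, and 5 were called in the opposite direction. Of the 487 such genes of WT CB, 442 (90.8%) were called higher in CB in the mutant, beside 25.8% of all genes, and their median log2 difference was 2.96 in WT and 2.88 in the mutant. Of the 693 such genes of WT HC, 644 (92.9%) were called higher in HC, beside 26.5% of all genes, with medians of -3.14 in WT and -2.95 in the mutant, and none was called higher in CB. The 1180 genes were chosen on the WT values, which favors the larger value in WT, so the reverse count was made as well. Of the 460 genes of mutant CB past the same limit, 441 (95.9%) were called higher in CB in WT, and of the 740 of mutant HC, 649 (87.7%) were called higher in HC. Without B10, C20 and C21, 1056 of the 1180 genes (89.5%) were called in the WT direction.

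The 5 genes called in the opposite direction were Ttr, Clic6, Col8a1, 1500015O10Rik and A230057D06Rik, and they are named because of their number. Ttr, the transthyretin gene of choroid plexus epithelium, was at 107, 321 and 240.5 CPM in mutant CB and 1635, 294 and 1301 CPM in mutant HC, against 6.34, 1109 and 1946 CPM in WT CB and 65.0, 51.9 and 53.1 CPM in WT HC. WT CB library M27 was far under M28 and M29, and mutant HC library B11 under B10 and B12, so that CB and HC overlapped in both genotypes. Col8a1, a chain of a short collagen, was at 1.71, 2.98 and 2.09 CPM in mutant CB and 7.85, 6.61 and 8.65 CPM in mutant HC, against 3.01, 7.27 and 13.8 CPM in WT CB and 0.520, 0.262 and 3.06 CPM in WT HC.

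Over the 13614 genes tested in both genotypes, the log2 differences had a Pearson correlation of 0.897 and a Spearman correlation of 0.775 across genes, which are not independent of each other. Both genotypes called 5349 genes, 5165 of them in the same direction and 184 in opposite directions. In 183 of the 184 the difference between genotypes was itself called. The 184 were chosen by opposite calls in the same libraries, so that count was largely fixed by the choice. Only 12 passed a log2 difference of 1 in both. A separate set of 1761 genes was called in the mutant only and 2293 in WT only, counts that do not test the difference between genotypes.

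**Figure D3:**
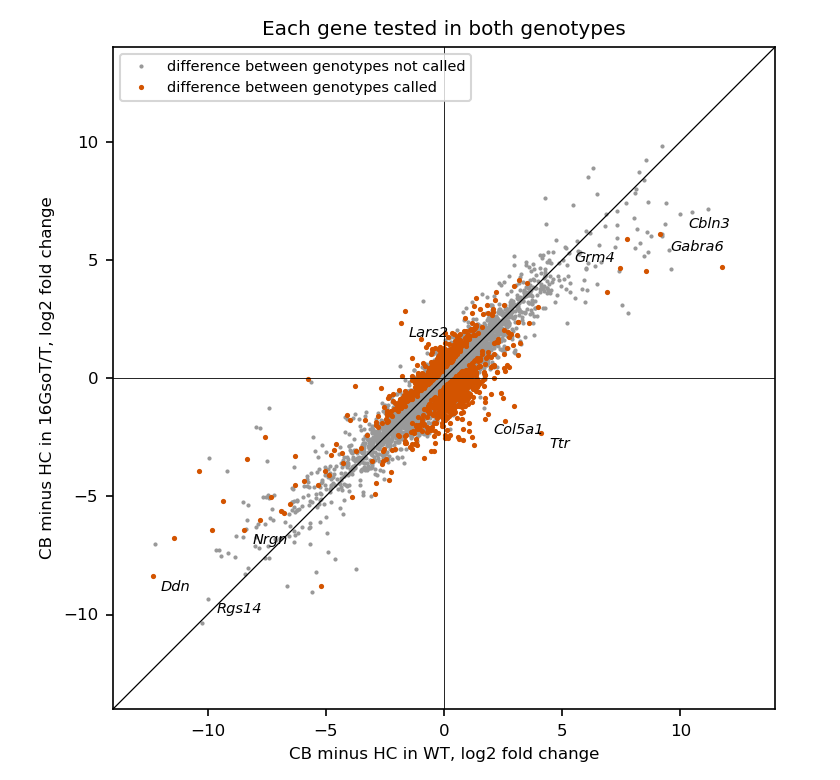
Log2 difference of CB minus HC in WT (x axis) and in 16GsoT/T (y axis) for each gene tested in both genotypes; the diagonal marks equal differences, and orange points are genes whose difference between genotypes was called. Restricted genes of both regions lie along the diagonal, some orange points of large differences lie nearer to 0 in the mutant (Ddn, Nrgn), and Ttr, Col5a1 and Lars2 lie in the quadrants where the genotypes have opposite signs.

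Placed on the line from the mean WT HC library (0) to the mean WT CB library (1) over the 1180 genes, the mutant CB libraries lay at 0.988 (C19), 0.928 (C20) and 0.909 (C21), and WT CB at 0.984 to 1.01. Mutant HC libraries lay at 0.0913 (B10), 0.0189 (B11) and 0.0248 (B12), and WT HC libraries at -0.00897 to 0.0308. Each WT library was left out of the mean against which it was placed. Over these 1180 genes C19, B11 and B12 fell within the range of the WT libraries of their region. Over all 14363 genes tested they did not, with C19 at 0.949 against 0.972 to 0.988 in WT CB. There B11 was at 0.0250 and B12 at 0.0324, under WT HC at 0.0332 to 0.0490. In both gene sets C20, C21 and B10 were the libraries nearest to the other region. These 3 are the libraries that held the most RNA of genes of the other region. The 54 and 87 restricted genes behind those sums are among the 1180, so the positions and the sums are not independent. The part of these genes in the positions was not tested.

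Regional transcription factors were mostly called on the side of their list. Of all genes, 25.8% were called higher in CB and 26.5% higher in HC, shares that stand beside each list count below. Of 22 midbrain-hindbrain factors tested, 21 were called higher in CB and 1 in HC, with a median log2 difference of 4.98 beside -0.01 for all genes (4.70 with genes absent from a group set at their lower bound). In WT the counts were the same and the median was 5.28. En2, the engrailed gene of the cerebellar field, was at 211, 195 and 203 CPM in mutant CB and 4.52, 1.17 and 0.279 CPM in mutant HC (log2 6.45 ± 0.45 SE, edgeR adjusted p = 1.72e-09). Its paralog En1 was at 3.24, 4.25 and 2.54 CPM in CB and had no read in any HC library, which is at least a 3.69-fold excess with 3 counts per library as the floor. Barhl2, a factor of rhombic-lip derived neurons, was at 48.5, 56.6 and 50.3 CPM in CB and 0.951, 0 and 0 CPM in HC (log2 6.93 ± 0.80 SE, edgeR adjusted p = 7.39e-09). Lhx1, a LIM factor of Purkinje cells, was at 53.1, 49.2 and 47.9 CPM in CB, and among the HC libraries only B10 held any, at 0.476 CPM. Irx3, an Iroquois factor, was at 9.90, 11.8 and 13.9 CPM in CB and at 0 in HC, at least 13.1-fold higher. The CB values of these factors did not overlap the HC values. The exception was Lhx9, known also from the thalamus and spinal cord, which was at 0.512, 1.56 and 0.149 CPM in CB and 9.51, 17.9 and 17.3 CPM in HC (log2 -4.27 ± 0.57 SE, edgeR adjusted p = 5.17e-06), with a WT difference of -4.77. None of the 22 was called in the difference between genotypes, for which 9.61% of all genes were called.

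Of 33 forebrain factors tested, 26 were called higher in HC and 4 higher in CB, with a median log2 difference of -3.49 beside -0.01 for all genes. In WT 28 were called higher in HC and 3 in CB, with a median of -4.77. The medians of the hippocampal lists given below were also larger in size in WT, and differences between medians were not tested. Fezf2, a zinc finger factor of projection neurons, was at 32.3, 26.4 and 36.5 CPM in mutant HC and had no read in any CB library of either genotype, at least 68.8-fold higher in the mutant. Emx2, a homeobox factor that patterns the dorsal forebrain, was at 11.7, 15.9 and 12.8 CPM in HC and 0, 0 and 0.149 CPM in CB, where a single library held a read. Tbr1, a T-box factor of glutamatergic neurons, was at 57.8, 54.5 and 63.6 CPM in HC and 0.683, 0.851 and 0.448 CPM in CB (log2 -6.47 ± 0.35 SE, edgeR adjusted p = 1.75e-10). Emx1 was at 13.3, 13.6 and 13.4 CPM in HC and 0.171, 0 and 0.149 CPM in CB (log2 -6.78 ± 0.91 SE, edgeR adjusted p = 3.36e-08). These factors were close to absent from all mutant CB libraries.

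Lhx2, a LIM factor needed for hippocampal development, was at 70.4, 62.2 and 68.4 CPM in mutant HC, 0.171, 0.425 and 1.19 CPM in mutant CB and 0 in all 3 WT CB libraries. Its difference was called (edgeR adjusted p = 0.0213), and without B10, C20 and C21 it was not (log2 2.88 beside 4.61, edgeR adjusted p = 0.308). Lhx2 and Dlx1 are among the restricted genes whose sums singled out C20 and C21, which favors a smaller value without these libraries. Dlx1, a factor of ventral forebrain interneurons, was at 0.171, 0.425 and 12.2 CPM in mutant CB, and the value of C21 exceeded the other CB libraries by far. Its log2 difference between CB and HC was -2.48 ± 0.71 SE, edgeR adjusted p = 0.00855 in the mutant and -7.58 in WT, and the difference between genotypes of 5.07 became 1.37 without C21 (edgeR adjusted p = 0.493). The 4 forebrain factors higher in CB were Cux1, Cux2, Id2 and Neurod2, which are also known from cerebellar neurons, and Neurod2 was not called without the 3 libraries (log2 0.29 beside 0.33, edgeR adjusted p = 0.132). Cux1 was the largest of them, at 134, 115 and 122 CPM in CB and 30.7, 25.7 and 34.3 CPM in HC (log2 1.96 ± 0.12 SE, edgeR adjusted p = 2.91e-08). In all, 6 of 36 forebrain factors tested in the difference between genotypes were called there, beside 9.61% of all genes. Without the 3 libraries the differences of all 6 were smaller in size, such as 0.70 beside 2.28 for Bcl11b and -0.61 beside -0.72 for Nr2f1.

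Markers of the cerebellar cell types were mostly higher in mutant CB. In WT the median log2 difference was 3.34 for granule neuron genes and 3.60 for Purkinje cell genes. It was 1.19 there for Bergmann glia genes and 1.83 for genes of cerebellar interneurons and unipolar brush cells. Of 21 granule neuron genes, 19 were called higher in CB and 1 in HC, with a median log2 difference of 3.25 beside -0.01 for all genes, and the same counts were obtained without the 3 libraries. The gene on the other side was Slc17a7, the vesicular glutamate transporter that hippocampal pyramidal neurons also use, at 883, 752 and 917 CPM in CB and 1587, 1469 and 1631 CPM in HC (log2 -0.93 ± 0.10 SE, edgeR adjusted p = 3.64e-06). Barhl1, a granule lineage homeobox gene, was at 18.8, 23.7 and 19.7 CPM in CB and 0.476, 0 and 0 CPM in HC (log2 6.52 ± 1.01 SE, edgeR adjusted p = 6.72e-08). Reln, the secreted guidance protein reelin, was at 429, 413 and 400.5 CPM in mutant CB and 43.5, 60.7 and 55.8 CPM in mutant HC, against 301, 272 and 270.3 and 66.8, 60.3 and 60.6 CPM in WT. Its CB excess was larger in the mutant by 0.79 on the log2 scale (95% interval 0.47 to 1.105, edgeR adjusted p = 0.00328), and the call was kept without the 3 libraries (edgeR adjusted p = 0.0154).

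All but 1 of 26 Purkinje cell genes, 25, were called higher in CB in the mutant and none higher in HC, with a median log2 difference of 3.74. Gm7348, the symbol under which the table holds the Purkinje corepressor Skor2, was at 22.7, 22.5 and 22.2 CPM in CB and at 0 in HC, at least 24.8-fold higher. Pcp2, a Purkinje cell G protein regulator, was at 316, 293 and 304 CPM in CB and 13.3, 1.17 and 1.12 CPM in HC (log2 5.61 ± 0.48 SE, edgeR adjusted p = 8.09e-08), with B10 the highest HC library. Rgs8, a regulator of G protein signaling, was at 1840.4, 1844 and 1878 CPM in CB and 109, 126 and 94.0 CPM in HC (log2 4.03 ± 0.11 SE, edgeR adjusted p = 6.02e-11). Gm941, the table's symbol for Arhgef33, was at 220.1, 182 and 201 CPM in mutant CB and 4.28, 1.56 and 1.95 CPM in mutant HC. WT values for it were 293, 258 and 279 CPM in CB and 0.780, 0.525 and 0 CPM in HC, and its difference between genotypes of -3.06 was -2.26 without the 3 libraries and was then not called (edgeR adjusted p = 0.0749).

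The other cerebellar lists were smaller. Of 13 Bergmann glia genes, 11 were called higher in CB and 1 in HC, with a median log2 difference of 1.20. Gdf10, a growth factor of Bergmann glia, was at 274, 297 and 239 CPM in CB and 17.8, 15.6 and 10.9 CPM in HC (log2 4.13 ± 0.17 SE, edgeR adjusted p = 4.81e-10), and the WT difference was 3.83. Npy2r, a neuropeptide Y receptor that pyramidal neurons also express, was the member on the HC side, at 0.171, 0.284 and 0.896 CPM in CB and 41.6, 57.2 and 50.2 CPM in HC. Of 12 genes of cerebellar interneurons and unipolar brush cells, 8 were called higher in CB and 3 in HC, with a median of 1.23. The members on the HC side were Sorcs3, Grm2 and Nxph1. Slc6a5, the glycine transporter of Golgi cells, was at 19.3, 26.5 and 13.7 CPM in CB, and a single HC library held any read. Calb2, or calretinin, was at 643, 675 and 640.4 CPM in mutant CB and 55.2, 42.0 and 27.3 CPM in mutant HC, against 413, 387 and 454 CPM in WT CB (log2 3.91 ± 0.18 SE, edgeR adjusted p = 2.50e-09 in the mutant). Its excess was larger in the mutant by 0.91 (95% interval 0.35 to 1.46, edgeR adjusted p = 0.0394) and lost its call in 9 of the 12 omissions of a single library, among them B12 (0.67) and N10 (0.68). Of 7 genes of the cerebellar nuclei, 3 were called higher in CB and 2 in HC, so that list did not divide by its name.

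**Figure D4:**
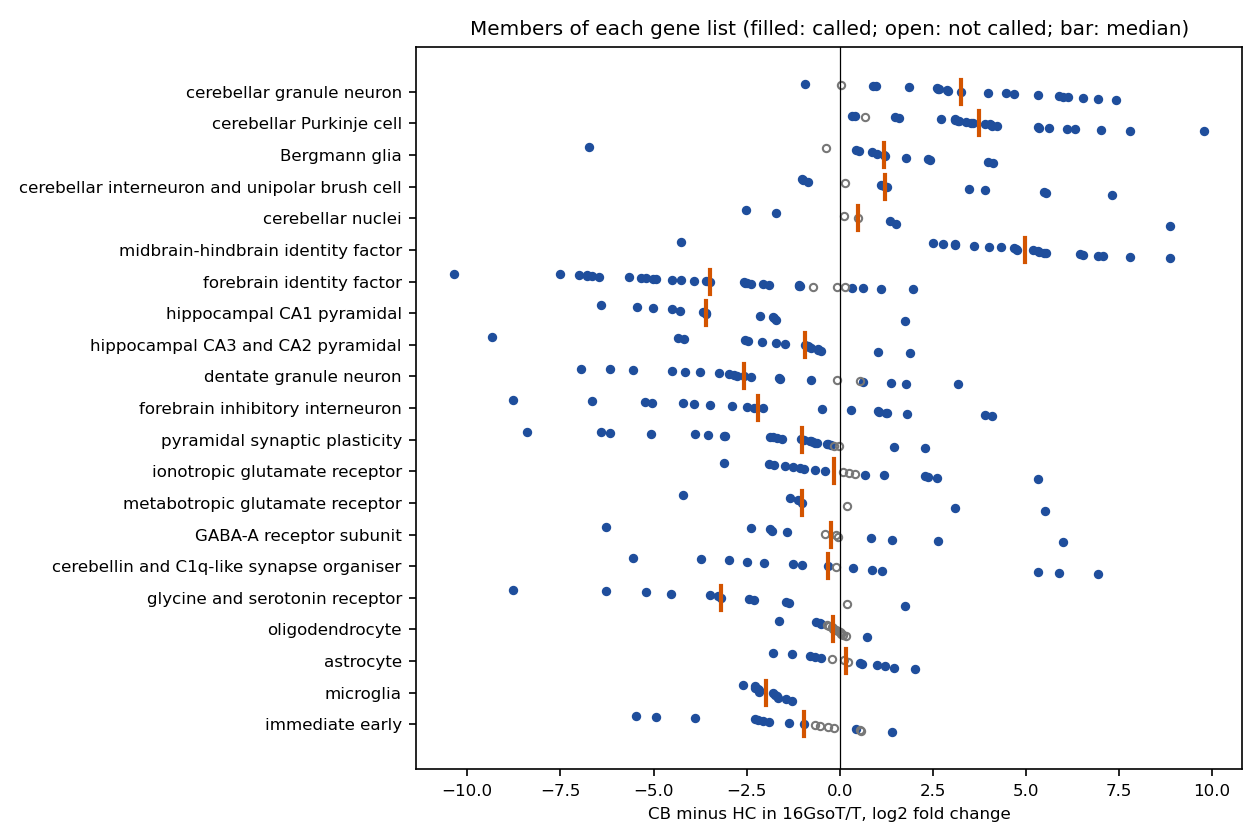
Log2 difference of CB minus HC in 16GsoT/T (x axis) for every tested member of each gene list (rows); filled points were called, open points were not, and the orange bar is the median of the list. The medians of the cerebellar lists lie to the right of 0 and those of the hippocampal lists to the left, most lists have members on the other side, and receptor lists spread to both sides.

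Hippocampal lists were mostly higher in HC. In WT the median log2 difference was -4.16 for CA1 genes and -1.13 for genes of CA3 and CA2. All 13 CA1 genes were called, 12 higher in HC and 1 higher in CB, with a median log2 difference of -3.59. Fibcd1, an acetyl-binding receptor known as a CA1 marker, was at 141, 144 and 133 CPM in HC and 0.341, 0.992 and 3.58 CPM in CB (log2 -6.41 ± 0.41 SE, edgeR adjusted p = 1.59e-09). Fibcd1 was highest in C21 among CB libraries. Htr1b, a serotonin receptor, was the CA1 gene on the CB side, at 8.19, 8.36 and 7.91 CPM in CB and 2.85, 1.17 and 2.51 CPM in HC (log2 1.76 ± 0.33 SE, edgeR adjusted p = 0.000293). All 17 tested genes of CA3 and CA2 were called, 15 higher in HC and 2 higher in CB, with a median of -0.93. Rgs14, the CA2 regulator of G protein signaling, was at 113, 107 and 110.2 CPM in HC and 0, 0.425 and 0 CPM in CB, with a log2 difference of -9.33 ± 0.85 SE, edgeR adjusted p = 1.07e-10 and of -9.98 in WT. Only C20 among the mutant CB libraries held any read of Rgs14.

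Of 21 dentate granule neuron genes, 15 were called higher in HC and 4 in CB, with a median log2 difference of -2.56 (-2.77 in WT). Dsp, or desmoplakin, was at 24.5, 49.4 and 28.5 CPM in mutant HC and 0, 0.425 and 0.299 CPM in mutant CB (log2 -6.95 ± 0.88 SE, edgeR adjusted p = 4.38e-08). Lct, the lactase gene that marks dentate granule neurons, was at 22.6, 36.2 and 31.5 CPM in HC and 0.171, 0.284 and 0.746 CPM in CB (log2 -6.16 ± 0.56 SE, edgeR adjusted p = 1.09e-08). Calb1, which both dentate granule neurons and Purkinje cells express, was on the CB side at 1304, 1137 and 1094 CPM in CB and 149, 112 and 112 CPM in HC, and its difference between genotypes was 0.01 (95% interval -0.33 to 0.34). Prox1, the homeobox factor of dentate granule neurons, is also expressed in cerebellum, and was at 24.5, 51.0 and 45.8 CPM in mutant HC and 38.9, 38.1 and 39.6 CPM in mutant CB. The mutant groups overlapped and the contrast was not called (log2 -0.08, 95% interval -0.52 to 0.35). In WT it was higher in HC, at 45.5, 70.3 and 86.4 CPM against 25.5, 28.7 and 30.1 CPM in CB. The difference between genotypes of 1.22 was called (edgeR adjusted p = 0.0192) and was 0.97 without the 3 libraries, where it was not called (edgeR adjusted p = 0.107).

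Of 20 forebrain interneuron genes, 12 were called higher in HC and 8 higher in CB, with a median of -2.18. In WT the counts were 14 and 6, with a median of -2.71. Sst, or somatostatin, was at 185, 121 and 157 CPM in HC and 2.56, 7.37 and 2.54 CPM in CB (log2 -5.24 ± 0.32 SE, edgeR adjusted p = 6.27e-09). Vip, a peptide of another interneuron class, was at 21.6, 12.8 and 19.8 CPM in HC and 0, 0.709 and 0.896 CPM in CB (log2 -5.04 ± 0.58 SE, edgeR adjusted p = 5.90e-07). Both peptides were close to absent from CB. Htr3a, a serotonin-gated channel of interneurons, had no read in mutant CB and was at 10.9, 11.3 and 10.04 CPM in HC, at least 23.3-fold higher. Pvalb, or parvalbumin, which Purkinje cells and molecular layer interneurons share with hippocampal basket cells, was higher in CB at 848, 647 and 745 CPM against 64.7, 22.9 and 34.0 CPM in HC (log2 4.09 ± 0.25 SE, edgeR adjusted p = 3.28e-08). Gad1, which makes GABA in all inhibitory neurons, was at 722, 619.8 and 725 CPM in mutant CB and 295, 286 and 257 CPM in mutant HC, against 570.5, 589 and 542 CPM and 384, 339.9 and 301 CPM in WT. Its CB excess was larger in the mutant by 0.55 (95% interval 0.26 to 0.85, edgeR adjusted p = 0.0205).

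Most receptor families held paralogs on both sides. Of 12 GABA-A receptor subunits tested, 4 were called higher in CB and 5 in HC, beside 25.8% and 26.5% of all genes. Their median log2 difference was -0.24, beside -0.01 for all genes, and the sign was that of WT in 11 of 12. For ionotropic glutamate receptors the sign was that of WT in 16 of 18, for metabotropic ones in 7 of 7, and for cerebellins and their partners in 15 of 15. Gabra5, the alpha subunit of extrasynaptic receptors in pyramidal neurons, was at 213, 236 and 207 CPM in HC and 0.683, 3.83 and 3.88 CPM in CB (log2 -6.28 ± 0.31 SE, edgeR adjusted p = 4.81e-10). Gabra6 was the reverse, as given above. Gabrd, the delta subunit of tonic inhibition, was at 196, 187 and 199.9 CPM in CB and 32.6, 22.9 and 33.2 CPM in HC (log2 2.64 ± 0.13 SE, edgeR adjusted p = 2.96e-09).

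Among 18 ionotropic glutamate receptor genes, 6 were called higher in CB and 9 in HC, beside 25.8% and 26.5% of all genes. Their median was -0.15, beside -0.01 for all genes. Grin2c, the NMDA receptor subunit of mature granule neurons, was at 318, 318 and 320.0 CPM in CB and 59.7, 37.7 and 51.9 CPM in HC (log2 2.60 ± 0.13 SE, edgeR adjusted p = 5.80e-09). Grin2b, which pyramidal neurons keep, was at 1.37, 3.40 and 4.33 CPM in CB and 11.4, 39.7 and 29.6 CPM in HC (log2 -3.12 ± 0.46 SE, edgeR adjusted p = 4.73e-05). The NMDA receptor subunits thus lay on opposite sides. Gria2, the AMPA receptor subunit that limits calcium entry, was at 218, 246 and 243 CPM in mutant CB, less than in WT CB at 566, 548 and 524 CPM in every library. HC values were 685, 989 and 857 CPM in the mutant and 861, 994 and 1079 CPM in WT. The log2 difference was -1.89 in the mutant and -0.92 in WT, and the difference between genotypes was -1.01 (95% interval -1.36 to -0.67, edgeR adjusted p = 0.00108). Gria4, the AMPA receptor subunit of Bergmann glia and granule neurons, was higher in CB in both genotypes, at 512, 428 and 451 CPM in mutant CB and 91.1, 82.1 and 85.7 CPM in mutant HC. Its excess was smaller in the mutant (log2 -0.78, 95% interval -1.09 to -0.48, edgeR adjusted p = 0.00245), and without the 3 libraries the value was -0.57 and was not called (edgeR adjusted p = 0.0638).

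Of 7 metabotropic glutamate receptor genes tested, 2 were called higher in CB, with Grm4 given above among them, and 4 in HC. These counts stood beside 25.8% and 26.5% of all genes. Grm5, a postsynaptic receptor of pyramidal neurons, was at 214, 325 and 269 CPM in HC and 11.4, 19.99 and 13.4 CPM in CB (log2 -4.21 ± 0.19 SE, edgeR adjusted p = 2.16e-09). Cerebellins, C1q-like proteins and their partners divided as 6 of 15 higher in CB and 8 higher in HC, beside the same shares of all genes. The cerebellins themselves were divided. Cbln1, a synapse organiser secreted by granule neurons, was at 1122, 958 and 1045 CPM in CB and 30.4, 7.39 and 9.76 CPM in HC (log2 5.88 ± 0.32 SE, edgeR adjusted p = 7.65e-09). Its paralog Cbln2 was on the HC side at 9.75, 13.2 and 13.4 CPM, against 0.683, 3.69 and 2.09 CPM in CB (log2 -2.48 ± 0.40 SE, edgeR adjusted p = 0.000117). Cbln4 was also on the HC side, at 7.85, 4.67 and 9.21 CPM against 1.19, 1.84 and 2.54 CPM in CB. C1ql2, a dentate mossy fiber synapse organiser, was at 38.0, 24.9 and 36.5 CPM in HC and 1.02, 0.709 and 0.448 CPM in CB (log2 -5.56 ± 0.42 SE, edgeR adjusted p = 5.74e-09). Nptx1, a neuronal pentraxin, was higher in CB at 1003, 1022 and 1030.2 CPM against 493, 571 and 554 CPM. Of 13 glycine and serotonin receptor genes tested, 11 were called higher in HC and 1 in CB, beside 26.5% and 25.8% of all genes. Their median was -3.18, so this list lay mostly on the HC side. Htr1a was at 28.1, 23.7 and 31.5 CPM in HC and 0.171, 1.13 and 0.896 CPM in CB (log2 -5.21 ± 0.43 SE, edgeR adjusted p = 1.83e-08). Htr4 was at 12.8, 17.1 and 10.6 CPM in HC and 0.171, 0.142 and 0.149 CPM in CB (log2 -6.28 ± 0.77 SE, edgeR adjusted p = 5.26e-08).

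Genes of synaptic plasticity in pyramidal neurons were called higher in HC in 22 of 26 cases and higher in CB in 2, with a median log2 difference of -1.01. In WT the counts were 23 and 2, with a median of -1.44. Camk4, a nuclear calmodulin kinase of granule neurons, was on the CB side at 1250.2, 1075 and 1126 CPM in CB and 217, 239 and 223 CPM in HC (log2 2.29 ± 0.09 SE, edgeR adjusted p = 9.30e-10). The other gene on the CB side was Adcy1, a calmodulin-stimulated cyclase, at 2923, 2815 and 2931 CPM in CB and 822, 1142 and 1067 CPM in HC (log2 1.46 ± 0.11 SE, edgeR adjusted p = 1.88e-07). In 7 of the 26 the difference between genotypes was called, each toward CB in the mutant, beside 4.50% of all genes toward CB, and in 3 without the 3 libraries, Camk2b, Neurl1a and Syn1. Syn1, a protein of synaptic vesicles, was at 421, 397 and 447 CPM in mutant CB and 204, 222 and 219 CPM in WT CB, which did not overlap. HC values were 457, 495 and 472 CPM in the mutant and 511, 414 and 467 CPM in WT. Its HC excess was smaller in the mutant (log2 -0.23, and -0.24 and not called without the 3 libraries, edgeR adjusted p = 0.2) than in WT (log2 -1.18), a difference of 0.92 (95% interval 0.65 to 1.19, edgeR adjusted p = 0.000226). Camk2b, the beta subunit of calcium/calmodulin kinase II, was at 1004, 886 and 996 CPM in mutant CB and 680.1, 709.6 and 645 CPM in WT CB, with a difference between genotypes of 0.72 (edgeR adjusted p = 0.00343).

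All 12 microglia genes were called higher in HC, beside 26.5% of all genes, with a median log2 difference of -1.98, and they were also all called higher in HC in WT (median -1.73). Their summed level was 148 to 163 CPM in mutant CB and 461 to 530 CPM in mutant HC. P2ry12, the purinergic receptor of resting microglia, was at 10.1, 10.2 and 9.85 CPM in CB and 47.3, 49.0 and 43.8 CPM in HC (log2 -2.27 ± 0.14 SE, edgeR adjusted p = 2.56e-08). C1qb, a chain of complement C1q that microglia make, was at 10.4, 7.94 and 7.91 CPM in CB and 39.0, 32.7 and 39.9 CPM in HC (log2 -2.16 ± 0.17 SE, edgeR adjusted p = 2.32e-07). Of 14 astrocyte genes, 6 were called higher in CB and 5 in HC, beside 25.8% and 26.5% of all genes. Slc1a3, the glutamate transporter abundant in Bergmann glia, was at 1771, 1476 and 1613 CPM in CB and 646, 699 and 649 CPM in HC (log2 1.23 ± 0.09 SE, edgeR adjusted p = 1.99e-07). Its paralog Slc1a2 was on the HC side at 763, 875 and 826 CPM in CB and 2281, 2925 and 3012 CPM in HC (log2 -1.79 ± 0.11 SE, edgeR adjusted p = 2.37e-08). Of 17 oligodendrocyte genes, 1 was called higher in CB, 4 were called higher in HC and 12 were not called, beside 52.3% of all genes called. Their summed level was 7106, 10995 and 8991 CPM in C19, C20 and C21 and 7413, 10744 and 9208 CPM in B10, B11 and B12. Without the 3 libraries, C19, the lowest CB library, is left against B11 and B12, which were above B10. That fit therefore cannot tell region from the spread of single libraries in this list.

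Immediate early genes, which neurons induce when active, were called higher in HC in 9 of 17 cases and higher in CB in 2, beside 26.5% and 25.8% of all genes. Without the 3 libraries the counts were 11 and 3. Their summed level was 530 to 806 CPM in mutant CB and 868 to 1972 CPM in mutant HC, with a wide spread among HC libraries. Arc, a regulator of receptor trafficking, was at 292, 197 and 559.7 CPM in B10, B11 and B12 and 24.9, 15.2 and 34.6 CPM in CB (log2 -3.87 ± 0.34 SE, edgeR adjusted p = 1.05e-06). Egr1 was at 260.2, 161 and 373 CPM in HC and 71.7, 55.9 and 71.6 CPM in CB (log2 -2.06 ± 0.22 SE, edgeR adjusted p = 6.47e-06). Nr4a3, an orphan nuclear receptor, was the only member called in the difference between genotypes. It was at 14.5, 16.4 and 38.8 CPM in mutant CB and 1.74, 3.203 and 2.61 CPM in WT CB, and at 27.8, 24.5 and 31.2 CPM and 44.0, 23.9 and 32.8 CPM in mutant and WT HC. Its difference was 3.41 (95% interval 2.30 to 4.53, edgeR adjusted p = 0.000387), and all 3 mutant CB libraries exceeded all 3 WT CB libraries.

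Markers of tissue beside the dissected regions were also counted. Of all genes, 25.8% were called higher in CB and 26.5% higher in HC in the mutant, and 27.5% and 28.5% in WT. Of 13 choroid plexus genes tested, 12 were called higher in HC and 1, Otx2, in CB, whereas in WT 4 of the 8 tested were called higher in CB and none in HC. Their summed level was 758 to 2471 CPM in mutant HC, 331 to 777 CPM in mutant CB, 259 to 350 CPM in WT HC and 209 to 3369 CPM in WT CB. No member was at 0 in all libraries of a group. Of 12 thalamus genes, 5 were called higher in CB and 2 in HC, and the sums were 1276 to 1315 CPM in mutant CB and 375 to 378 CPM in mutant HC. Of 10 striatum genes, 3 were called higher in CB and 6 in HC, with sums of 381 to 410 CPM and 201 to 252 CPM. Of 12 cerebral cortex genes, 3 were called higher in CB and 5 in HC, with sums of 445 to 588 CPM and 258 to 350 CPM. None of the 15 genes of the caudal brainstem and midbrain passed the count filter. Several of these lists hold genes that CB or HC neurons also express, such as Calb2 and Tbr1, and the part of tissue beside the regions in any result was not tested.

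Blood and vessel genes were called higher in CB in 4 of 15 cases and higher in HC in 6, beside 25.8% and 26.5% of all genes, and without the 3 libraries the counts were 5 and 2. The difference between genotypes was called in 7 of the 15, beside 9.61% of all genes, and in 3 without the 3 libraries. Rgs5, a pericyte marker, was at 12.3, 13.6 and 16.0 CPM in mutant CB and 25.7, 31.5 and 35.2 CPM in mutant HC, against 51.3, 34.7 and 51.2 and 19.8, 36.5 and 23.1 CPM in WT, and it was called in opposite directions in the genotypes. The difference between them was -1.93 (95% interval -2.56 to -1.30, edgeR adjusted p = 0.000691). Hba-a1 and Hba-a2, near-identical copies of alpha globin between which reads can be split, went in opposite directions and are uncertain, and Hba-a2 was at -2.50 in the mutant contrast and at -0.74 without the 3 libraries, where it was not called (edgeR adjusted p = 0.411). Eif2s3y, a gene of the Y chromosome used as a check of sex, was present in all 12 libraries and was lower in mutant CB, at 22.0, 20.3 and 20.7 CPM, than in mutant HC, at 47.8, 47.8 and 58.0 CPM (log2 -1.34 ± 0.13 SE, edgeR adjusted p = 2.15e-06). In WT it was at 65.6, 60.7 and 60.9 CPM in CB and 70.2, 59.3 and 44.2 CPM in HC.

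The regional difference itself differed between genotypes in 1380 of 14363 genes tested over the 12 libraries (9.61%; edgeR quasi-likelihood test, adjusted p at most 0.05). It was shifted toward CB in 647 genes and toward HC in 733 in the mutant, and 470 of the shifts passed a log2 size of 1, 111 toward CB and 359 toward HC. The split depended on the scaling of the libraries: 46.9% were toward CB with the trimmed mean of M values, 55.0% with relative log expression (811 and 663 genes), 35.3% with the upper quartile (496 and 911 genes) and 57.8% with DESeq2 (924 and 676 genes). Of 1348 called genes tested in all 3 fits, 634 had a narrower regional difference in the mutant, 714 had a wider one, and the sign changed in 664 of them. Without B10, C20 and C21, 680 genes were called, 319 toward CB and 361 toward HC. With N10 as the only WT HC library, 1433 were called. Among the 1180 regional genes of WT, 125 (10.6%) were called, 102 with a smaller and 23 with a larger difference in the mutant, and since WT values chose these genes a smaller value is favored. For 333 of the 1180 (28.2%), the 95% interval of the difference lay within a 2-fold change.

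Several genes restricted to the other region had smaller differences without the 3 libraries. Ddn, Nrgn, Camkv, Bcl11b and Cbln1 are among the restricted genes whose sums singled out these libraries, so a smaller value without them is favored. Of the 244 genes chosen by the naming rules and read here, 74 were called in the difference between genotypes, and 29 of them were still called without B10, C20 and C21. Ddn had a difference of 3.89 (95% interval 1.05 to 6.74, edgeR adjusted p = 0.024) with all libraries, of 1.46 without C21 (edgeR adjusted p = 0.117) and of 0.01 without the 3 (edgeR adjusted p = 1). Nrgn had 2.02 with all libraries and 0.95 without the 3 (edgeR adjusted p = 0.0969). Camkv, a kinase-like vesicle protein at 4.10, 14.9 and 14.3 CPM in mutant CB, went from 1.72 to 0.33 (edgeR adjusted p = 0.613). Bcl11b, a zinc finger factor at 1.19, 3.26 and 5.97 CPM in mutant CB, went from 2.28 to 0.70 (edgeR adjusted p = 0.566). On the CB side, Cbln1 went from -1.89 to -0.93 without B10 (edgeR adjusted p = 0.118). In these genes C19 lay nearest to the WT CB libraries, or B11 and B12 nearest to the WT HC libraries.

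Other differences were present in every mutant CB library. Mutant and WT CB libraries also differed as groups in the share of reads on genes, whose part in these differences was not tested. Sv2c, a synaptic vesicle protein, was at 43.0, 56.8 and 45.7 CPM in mutant CB and 4.04, 4.28 and 5.02 CPM in mutant HC, against 30.7, 31.3 and 33.6 CPM in WT CB and 10.9, 14.2 and 10.6 CPM in WT HC. Its CB excess was larger in the mutant by 2.01 (95% interval 1.44 to 2.58, edgeR adjusted p = 0.000124), with mutant CB higher and mutant HC lower than WT in every library. Spry4, an inhibitor of growth factor signaling, was at 36.9, 37.8 and 45.2 CPM in mutant CB and 9.51, 9.24 and 11.2 CPM in WT CB, and at 19.7, 11.7 and 13.4 CPM and 23.4, 10.2 and 14.7 CPM in mutant and WT HC. Its difference was 2.07 (95% interval 1.37 to 2.77, edgeR adjusted p = 0.000985). Between genotypes, the HC groups of Spry4 overlapped and the CB groups did not.

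Toward HC, Snhg11, a neuronal noncoding RNA that hosts small nucleolar RNAs, was at 175, 207 and 302 CPM in mutant CB and 949, 1567 and 1185 CPM in WT CB. In HC it was at 1019, 1303 and 1196 CPM in the mutant and 1124, 1159 and 1154 CPM in WT, so the regional difference of log2 -2.42 ± 0.16 SE, edgeR adjusted p = 8.52e-08 in the mutant stood against 0.03 in WT. The difference between them was -2.49 (95% interval -3.00 to -1.97, edgeR adjusted p = 1.06e-05). Kif17, a kinesin motor of dendrites, was at 2.05, 2.41 and 2.69 CPM in mutant CB and 9.66, 10.3 and 8.22 CPM in WT CB, with a difference of -2.69 (95% interval -3.32 to -2.07, edgeR adjusted p = 1.96e-05). Leng8 was at 65.2, 87.9 and 86.6 CPM in mutant CB and 378, 377 and 355 CPM in WT CB, and its difference was -2.29 (95% interval -2.66 to -1.92, edgeR adjusted p = 1.49e-06). Amy1, an amylase gene with close copies, was at 3.41, 4.11 and 3.13 CPM in mutant CB and 22.0, 20.9 and 23.3 CPM in WT CB (difference -2.73, edgeR adjusted p = 1.88e-06). All 4 had lower values in every mutant CB library than in any other library.

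Among the genes shifted toward HC were the collagens Col5a1, Col27a1 and Col7a1, and also Col8a1, given above, with a difference of -4.41. Col1a1 and Col1a2 were not called in the difference between genotypes. Col5a1, a fibrillar collagen chain, was at 5.80, 7.37 and 5.82 CPM in mutant CB and 16.2, 22.6 and 22.9 CPM in mutant HC, against 24.6, 30.1 and 26.9 CPM in WT CB and 13.005, 5.51 and 4.44 CPM in WT HC. It was called in opposite directions in the genotypes, and the difference was -3.51 (95% interval -4.31 to -2.71, edgeR adjusted p = 1.96e-05). Col27a1 was at 12.6, 7.23 and 10.001 CPM in mutant CB and 31.7, 48.2 and 31.0 CPM in WT CB, with a difference of -2.32 (95% interval -3.13 to -1.51, edgeR adjusted p = 0.00127). Col7a1 was at 0.683, 0.567 and 2.24 CPM in mutant CB and 12.5, 10.5 and 9.34 CPM in WT CB, with a difference of -3.40 (95% interval -4.74 to -2.05, edgeR adjusted p = 0.00252). In Col5a1, Col27a1 and Col7a1 the mutant CB libraries lay under the WT CB libraries without overlap.

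**Figure D5:**
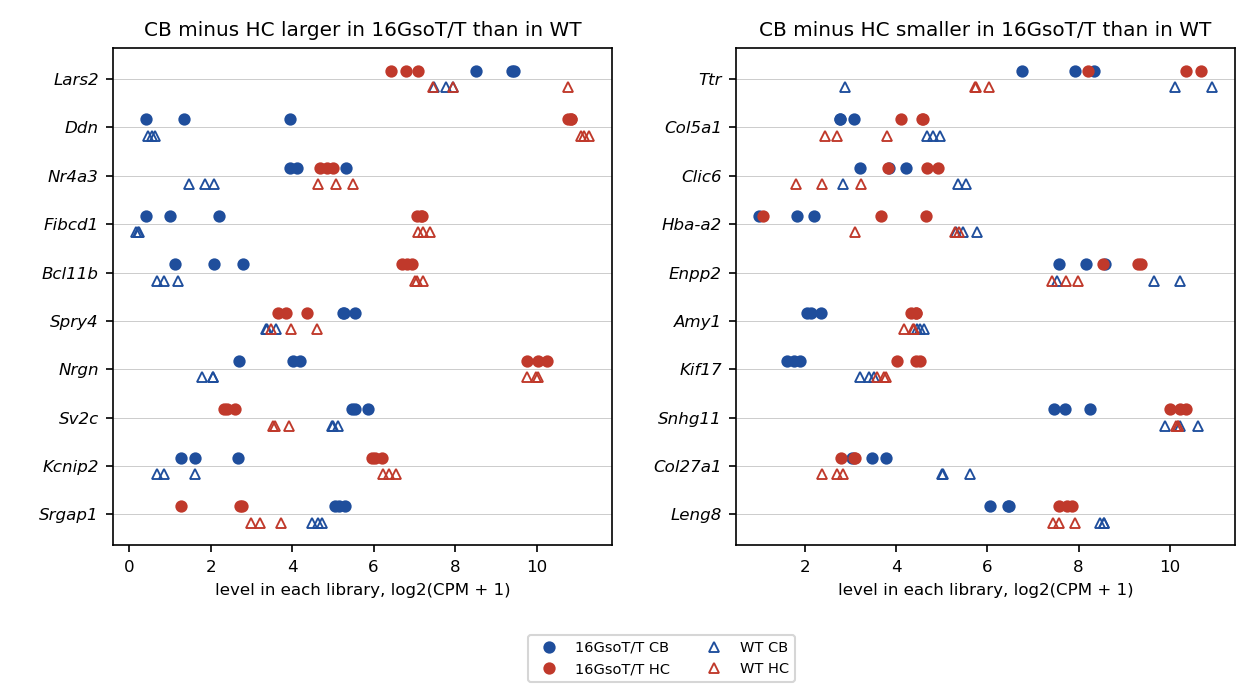
Level of the genes with the largest called shifts of CB minus HC toward CB in the mutant (left) and toward HC (right) in each library, as log2(CPM + 1); symbols as in the plot of regional genes. In Ddn, Fibcd1, Bcl11b and Nrgn the mutant CB libraries spread upward from the WT CB libraries. Lars2 is highest in a single WT HC library, and Amy1, Kif17, Snhg11 and Leng8 are low in all 3 mutant CB libraries.

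Lars2 and the choroid plexus genes had uneven libraries within a group. Lars2, a mitochondrial leucyl-tRNA synthetase gene, was at 700.2, 365 and 676 CPM in mutant CB and 134, 110.5 and 85.4 CPM in mutant HC, against 218, 247 and 178 CPM in WT CB. In WT HC it was at 174, 247 and 1755 CPM in N10, W481 and W483, and W483 set the WT mean. The difference between genotypes was 4.13 (edgeR adjusted p = 0.00422) and 2.36 without W483 (edgeR adjusted p = 0.000243). LOC236598 was likewise highest in W483, C19 and C21, with 254, 409 and 3004 CPM in WT HC. Among choroid plexus genes, Ttr had a difference between genotypes of -6.46 (95% interval -9.19 to -3.73, edgeR adjusted p = 0.0068), and Enpp2, a secreted lysophospholipase abundant in that tissue, had -2.77 (95% interval -4.01 to -1.53, edgeR adjusted p = 0.00749). Enpp2 was at 188, 379 and 287 CPM in mutant CB, 660.1, 372 and 630.2 CPM in mutant HC and 184, 805 and 1196 CPM in WT CB, where M27 was far under M28 and M29. In all, 11 of 14 choroid plexus genes were called in the difference between genotypes, all toward HC in the mutant beside 5.10% of all genes, and 4 without the 3 libraries. The values of genes that lost their call stayed within 1.5 times there, such as -7.07 for Ttr (edgeR adjusted p = 0.0704) and -5.45 beside -4.13 for Sostdc1 (edgeR adjusted p = 0.0562). The part of choroid plexus tissue in these differences was not tested.

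The genes beside the translocation breakpoints were read in the same contrast. Wbscr17, the table's symbol for Galnt17, a glycosyltransferase gene at chr5:131347952-131783948 (NCBIM37), was at 45.4, 52.3 and 48.5 CPM in mutant CB and 108, 139.6 and 115 CPM in mutant HC (log2 -1.36 ± 0.11 SE, edgeR adjusted p = 5.36e-07). In WT it was at 61.2, 60.1 and 59.2 CPM in CB and 166, 179.9 and 211 CPM in HC, and its difference between genotypes was 0.30 (95% interval -0.02 to 0.63, edgeR adjusted p = 0.228). Mutant values were lower than WT values in both regions without overlap, whereas the regional difference kept its direction. Auts2, a chromatin regulator gene of neurons at chr5:131913205-133019214, was at 97.6, 97.2 and 90.6 CPM in mutant CB and 63.7, 71.2 and 82.6 CPM in mutant HC (log2 0.34 ± 0.11 SE, edgeR adjusted p = 0.0199). Without B10, C20 and C21 that contrast was 0.30 and was not called (edgeR adjusted p = 0.162). Its WT contrast was not called (log2 -0.20), and the difference between genotypes was 0.51 (95% interval 0.14 to 0.87, edgeR adjusted p = 0.0728).

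Caln1, a neuronal calcium sensor gene further along chromosome 5 at chr5:130845346-131316515, was at 194, 178 and 156 CPM in mutant CB and 31.6, 53.3 and 46.3 CPM in mutant HC (log2 1.98 ± 0.16 SE, edgeR adjusted p = 2.90e-07). Its difference between genotypes was 0.49 (95% interval 0.01 to 0.98, edgeR adjusted p = 0.188). Sox1, the neural SOX factor beside the chromosome 8 breakpoint, was at 26.1, 27.8 and 26.0 CPM in mutant CB and 29.7, 17.9 and 23.2 CPM in mutant HC, and was not called there (log2 0.09, 95% interval -0.29 to 0.47). In WT it was higher in CB, at 30.3, 25.9 and 22.0 CPM against 13.5, 17.3 and 13.3 CPM, and the difference between genotypes was -0.70 (95% interval -1.22 to -0.18, edgeR adjusted p = 0.0811). None of the 4 genes passed the test of the difference between genotypes.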

How the data were processed

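RNA of dissected CB and HC was sequenced from 12 P35 mice, 3 in each region and genotype. The authors deposited a table of raw counts per gene symbol, not normalized, and per the labels the submitters' processing notes name CASAVA 1.8.2, TopHat2 2.0.8, HTSeq 0.6.1, edgeR 3.2.4 and R 3.0.0 with the mouse build NCBIM37. Which step used which version, the source of the gene models and whether counting used strand are not given in the sources used here, so reads of overlapping or antisense genes and of near-identical copies cannot be told apart. The labels name a different library kit from the study's methods. The lines of the table that name no gene (reads without a feature, ambiguous reads and similar) were left out, which left 37.6% to 42.4% of the counted reads on genes.

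Counts were tested with edgeR 4.0.16 (R 4.3.3) after trimmed mean of M values scaling and a filter on low counts (filterByExpr, minimum count 10, minimum total 15), with quasi-likelihood tests and Benjamini-Hochberg adjustment at 0.05 over all genes tested. CB and HC were compared within each genotype in its 6 libraries, and the difference between genotypes was the interaction of region and genotype over 12 libraries. Fold changes are log2 of CB over HC with Wald standard errors and 95% intervals, so that positive values are higher in CB. CPM values were scaled by the same factors, and 3 counts corresponded to 0.425 to 1.17 CPM per library, which was the floor for genes without a read. Intervals and floors cover counting error and the spread of 3 samples only, and the labels do not state whether the samples of a group came from separate litters. The position of a library was its projection, over genes past a log2 difference of 2 in WT, on the line joining the WT means of log2 CPM (prior count 2). The scripts were tested on simulated data. Alternatives were DESeq2 1.42.0, other scalings and filters, counts thinned to 2563968 per library, single libraries left out and other limits, and the fit without B10, C20 and C21 was added after seeing the data.

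The genes named were the 12 per direction with the largest difference in the mutant (mean log2 CPM of at least 5, groups apart, no provisional symbol), the 10 per direction with the largest difference between genotypes (mean of at least 3), up to 8 called genes of each of 29 gene lists with those on the side against the name of their list and those called between genotypes, the 4 genes beside the breakpoints, and up to 6 genes called in opposite directions, and some genes that met these rules are not reported here. Members and lists were chosen with earlier results of these data known. Of the list entries, 3 were not matched to the table and 9 were found under an older symbol. Ppp1r17 of the Purkinje cell list was among the unmatched, and the table's row under its older symbol Gsbs was not counted. Positions in NCBIM37 are from GENCODE vM1, and promoters are from RefSeq.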

Additional observations from a re-analysis of the deposited data

Results flagged for a closer look

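The 74 genes given here had a regional difference (log2 of CB over HC) that differed between 16GsoT/T and WT in the test of that difference itself (edgeR quasi-likelihood test, adjusted p at most 0.05), and each value is the mutant's log2 difference minus that of WT. They are values without an explanation. Of all genes tested, 9.61% were called.

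The call held under every alternative in which the gene was tested, omissions of a library included, for 25 genes. Toward CB in the mutant these were Lars2 4.13, Nr4a3 3.41, Spry4 2.07, Sv2c 2.01, Reln 0.79, Prkcc 0.86, Camk2b 0.72, Syn1 0.92, Hba-a1 1.52 and LOC236598 4.45. Lars2 and LOC236598 kept their call without W483 at a smaller value, and Hba-a1 is a near-identical copy of another globin gene. Toward HC they were Col5a1 -3.51, Enpp2 -2.77, Amy1 -2.73, Kif17 -2.69, Snhg11 -2.49, Col27a1 -2.32, Leng8 -2.29, Gria2 -1.01, Kcnj13 -6.03, Cldn2 -4.29, Dcn -1.62, Rgs5 -1.93, Eif2s3y -1.41, Col8a1 -4.41 and Col7a1 -3.40.

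The call held without B10, C20 and C21 but not under every other alternative for Calb2 0.91, Gad1 0.55, Neurl1a 0.49 and Slc4a5 -5.68.

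The call was lost without B10, C20 and C21 for 45 genes, and the value grew or shrank by less than 1.5 times in 30 of them and shrank by more in 15, so a lost call does not show a lost difference. Toward CB in the mutant these were Ddn 3.89, Nrgn 2.02, Camkv 1.72, Enc1 1.0004, Cpne6 1.24, Fibcd1 3.36, Bcl11b 2.28, Kcnip2 1.76, Srgap1 1.75, Rgs8 0.49, Grm2 0.87, Lhx2 4.61, Nr2e1 4.10, Prox1 1.22, Dlx1 5.07, Ndst4 2.15, Cpne4 1.54, Sema5a 0.84, Gad2 0.62, Erbb4 1.56, Dlg4 0.35, Ppp3ca 0.76, Grin2a 1.19, Gabrb1 0.80, Nptx1 0.52 and Alas2 1.57. The values of Lhx2 and Nr2e1 are fitted against WT CB libraries without a single read and bound nothing. Ddn, Nrgn, Camkv, Enc1, Cpne6, Fibcd1, Bcl11b, Kcnip2, Lhx2, Nr2e1 and Dlx1 belong to the restricted genes that singled out these libraries. So do Cbln1 and Gm941 below, and smaller values without the 3 libraries are favored in all of them. Toward HC, 7 genes of choroid plexus epithelium lost their call at values within 1.5 times of those with all libraries. With all libraries they were at Ttr -6.46, Clic6 -3.39, Folr1 -6.39, Sostdc1 -4.13, Prlr -3.24, Aqp1 -5.58 and Tmem72 -5.21, and without the 3 at Ttr -7.07, Clic6 -3.81, Folr1 -6.21, Sostdc1 -5.45, Prlr -4.42, Aqp1 -5.76 and Tmem72 -4.99. The others toward HC were Cbln1 -1.89, Hba-a2 -3.13, Gm941 -3.06, Gria4 -0.78, Lypd6 -0.96, Nr2f1 -0.72, Socs2 -1.0044, Adora2a -2.18, C1qc -0.92, C1qb -1.18, Cldn5 -0.94 and Vtn -0.87.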

How the results depend on the processing

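No paired analysis was possible because CB and HC libraries come from differently named mice and the names give no pairs. The mutant contrast gave 6330 to 7331 calls with single libraries left out and 5228 under a further limit of 1.5-fold. In WT it gave 6700 to 7906 with single libraries left out and 5056 under the same limit of 1.5-fold. The difference between genotypes was called in 1380 of 14363 genes tested, with 3739 at an unadjusted p under 0.05. With counts thinned to the smallest library it was called in 904 of 13386 tested. Leaving out single libraries gave 868 (without M28) to 1427 (without B11), with 911 without C21, and 680 were called without B10, C20 and C21. The median difference between genotypes shifted by 0.04 with relative log expression scaling and by -0.05 with the upper quartile. Of WT regional genes, the mutant kept 1086 of 1180 (92.0%), and with single libraries left out 1085 to 1137, which were 86.2% (without W483) to 93.9% (without B11) of changing totals. It kept 1148 of 1460 (78.6%) with N10 as the only WT HC library, 1388 of 1717 (80.8%) with no filter on low counts, 529 of 578 with at least 10 counts in every library, 2632 of 3053 at a log2 limit of 1 and 573 of 612 at a limit of 3. The cause of these changes was not tested beyond the number of genes or samples that each alternative leaves. Of 243 genes chosen by the naming rules and tested in the mutant contrast, 236 were called and 211 were called under every alternative that tested them. Of 244 tested in the difference between genotypes, 74 were called and 25 under every such alternative, and no direction of a call was reversed. Without B10, C20 and C21 the difference between genotypes gained a call in Atp2a3, Miat, Zic2 and Cldn11.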
